A study of Mus musculus with 19 samples.

Results

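The 6 genes described here, Gad1, Gad2, Slc32a1, Pvalb, Calb2 and Lhx6, cover the synthesis and vesicular loading of the inhibitory transmitter GABA and 3 markers of cortical interneuron classes. They were taken by name, all 6 of them, out of 24130 Ensembl genes that had an entry in any library of primary somatosensory cortex (S1). Polyadenylated RNA came from S1 of male C57BL/6 mice (the J substrain, by the study's methods) aged 56 days, cut by hand into 6 laminar segments from the surface to the white matter. Segment A held mostly layers 1 to 3, segment B mostly layer 4, segments C and D mostly layer 5, segment E mostly layer 6 and segment F mostly layer 6b, so that each segment also carried some of its neighbours. Segments A, C, D, E and F had 1 library each, pooled from 8 mice, and segment B was sequenced as 2 libraries (B1 and B2) of 4 pooled mice each. By the study's methods the same 8 mice gave all segments, with B1 and B2 from their separate litters, so the libraries of different segments share animals, which the tests below do not model. No library is a single animal, and B1 and B2 were the only replicates of a segment.

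GABA is made from glutamate by 2 glutamate decarboxylases, GAD67 (Gad1) and GAD65 (Gad2), and is packed into synaptic vesicles by the vesicular transporter VGAT (Slc32a1). Cortical interneurons are a minority among excitatory neurons and fall into classes that are told apart by calcium-binding proteins and peptides. Parvalbumin (Pvalb) is a calcium buffer of fast-spiking basket and chandelier cells, and calretinin (Calb2) is a calcium-binding protein of a class rich in the upper layers, often bipolar in shape. Lhx6 is a LIM-homeodomain transcription factor that marks interneurons born in the medial ganglionic eminence, the source of the parvalbumin and somatostatin classes.

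On the mm9 build, 4 of the 6 genes lie on chromosome 2: Gad2 (ENSMUSG00000026787) at chr2:22477725-22549394, Lhx6 (ENSMUSG00000026890) at chr2:35937470-35960791, Gad1 (ENSMUSG00000070880) at chr2:70400099-70440071 and Slc32a1 (ENSMUSG00000037771) at chr2:158436503-158441484. Pvalb (ENSMUSG00000005716) lies at chr15:78021544-78034667 and Calb2 (ENSMUSG00000003657) at chr8:112666439-112692106. The start regions of Gad1, Gad2, Slc32a1, Pvalb and Lhx6, the 5 genes found in the table of start regions, are shown to set their sequence beside their levels across the layers. Pvalb is shown at the start of its listed transcript, and Lhx6 at 2 starts because transcripts from both were listed. Each sequence is from RefSeq on GRCm38.p6, runs 5′ to 3′ on the strand of the gene from 250 bases before to 50 bases after the start, and has its CG dinucleotides in capitals. The windows are chr2:70561879-70562178 (+) for Gad1, chr2:22622077-22622376 (+) for Gad2, chr2:158610508-158610807 (+) for Slc32a1, chr15:78204188-78204487 (-) for Pvalb, and chr2:36105359-36105658 (-) and chr2:36104011-36104310 (-) for Lhx6.
Gad1: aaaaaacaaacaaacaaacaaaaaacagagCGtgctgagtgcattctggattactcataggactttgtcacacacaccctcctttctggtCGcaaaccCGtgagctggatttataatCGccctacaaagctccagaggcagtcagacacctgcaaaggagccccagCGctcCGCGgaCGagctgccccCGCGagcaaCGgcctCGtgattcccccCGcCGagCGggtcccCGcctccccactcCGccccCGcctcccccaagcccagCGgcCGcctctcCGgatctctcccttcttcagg
Gad2: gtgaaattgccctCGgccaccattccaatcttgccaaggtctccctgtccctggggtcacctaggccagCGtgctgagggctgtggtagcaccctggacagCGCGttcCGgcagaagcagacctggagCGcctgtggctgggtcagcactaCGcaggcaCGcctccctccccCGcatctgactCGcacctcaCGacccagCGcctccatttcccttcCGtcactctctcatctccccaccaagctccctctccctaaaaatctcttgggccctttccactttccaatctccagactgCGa
Slc32a1: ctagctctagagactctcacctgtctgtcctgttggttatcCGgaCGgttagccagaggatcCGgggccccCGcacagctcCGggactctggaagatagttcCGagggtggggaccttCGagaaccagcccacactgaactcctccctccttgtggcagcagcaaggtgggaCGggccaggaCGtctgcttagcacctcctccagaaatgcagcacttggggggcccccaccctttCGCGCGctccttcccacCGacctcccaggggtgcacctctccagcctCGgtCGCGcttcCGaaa
Pvalb: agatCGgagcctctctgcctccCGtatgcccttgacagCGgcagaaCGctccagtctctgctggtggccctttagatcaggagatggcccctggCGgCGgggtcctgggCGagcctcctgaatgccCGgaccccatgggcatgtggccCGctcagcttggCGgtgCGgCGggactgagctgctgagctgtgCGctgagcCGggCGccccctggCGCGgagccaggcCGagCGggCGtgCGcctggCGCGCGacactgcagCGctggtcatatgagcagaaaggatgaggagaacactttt
Lhx6, upstream start: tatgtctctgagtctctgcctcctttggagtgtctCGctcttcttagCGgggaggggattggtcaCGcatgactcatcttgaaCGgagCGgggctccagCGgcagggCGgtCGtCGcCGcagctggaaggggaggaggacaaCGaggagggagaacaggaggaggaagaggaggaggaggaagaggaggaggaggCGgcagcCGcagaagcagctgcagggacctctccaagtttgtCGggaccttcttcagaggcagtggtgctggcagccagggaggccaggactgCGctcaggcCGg
Lhx6, downstream start: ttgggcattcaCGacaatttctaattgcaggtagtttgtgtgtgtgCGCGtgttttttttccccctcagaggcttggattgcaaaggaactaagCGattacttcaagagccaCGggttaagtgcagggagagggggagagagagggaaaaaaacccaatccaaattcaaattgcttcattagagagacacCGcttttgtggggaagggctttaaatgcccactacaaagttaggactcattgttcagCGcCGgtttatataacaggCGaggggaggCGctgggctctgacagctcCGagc

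The Pvalb window and both Lhx6 windows started at the same base as an Ensembl transcript with an FPKM here, and the Gad1, Gad2 and Slc32a1 windows started 87, 122 and 9 bases from one. The windows differed most in their CG dinucleotides, with 25 in Pvalb, 21 in Gad1, 17 in Slc32a1, 14 in Gad2, and 16 and 11 at the upstream and downstream starts of Lhx6, against a median of 7 over 32851 windows of the same length. The windows not shown, another Pvalb start (chr15:78206351-78206650) and another Lhx6 start (chr2:36104484-36104783), where no listed transcript began, had 5 and 17. By rank among all windows, the counts in the windows shown ran from percentile 58.6 (downstream Lhx6 start) to percentile 81.6 (Pvalb). TATAAA, searched on both strands like all motifs here, was present in the Gad1 window and in the downstream Lhx6 window, and in 13.6% of all windows. CCAAT was present in the Gad2 window and in both Lhx6 windows (37.4% of all windows). GGGCGG was present in Gad1 and in the upstream Lhx6 window (35.7% of all windows). CANNTG was present in all of these windows except the downstream Lhx6 start (72.3% of all windows), and TAATTA was present in none of the 6 (5.29% of all windows).

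Levels are given as FPKM, fragments per kilobase of transcript model scaled to the number of mapped fragments, with the 95% interval that cufflinks placed on the estimate within a library. The interval holds no variation between mice. The estimated depth was 31.4 M fragments in A, the shallowest, and 41.8 to 75.4 M fragments in the others, and A (21.8%) and B2 (18.2%) had a larger mitochondrial share of their summed FPKM than the other 5 libraries (5.03% to 9.78%). All 6 genes were above 0 in all 7 libraries. As a check of the labels, Rorb (layer 4) was highest in B2, and Fezf2 and Etv1 (layer 5) in C. Ccn2, Cplx3 and Nxph4 (layer 6b) were highest in F, with Cplx3 at 164 FPKM in F and 2.29 FPKM in C. Cux2 (upper layers) was highest in B1 (43.5 FPKM, against 37.9 in A and 28.6 in B2). Foxp2 and Tle4 (layer 6) were highest in F (13.9 and 39.8 FPKM), slightly above E (13.2 and 35.0 FPKM). Of the lists of markers for other cells, the 6 oligodendrocyte genes summed to 312 FPKM in A and rose through 1581 in C to 12042 in F (Mbp, myelin basic protein, 172 to 6954 FPKM). The 6 meningeal genes summed to 1746 FPKM in A, nearly all of it Ptgds, a prostaglandin synthase of meninges and oligodendrocytes (1733 FPKM), and to 77.5 to 273 FPKM elsewhere. The 9 striatal genes summed to 103 FPKM in F and 40.9 to 58.9 FPKM elsewhere. Penk, preproenkephalin, the striatal gene with the highest mean, was 36.2 FPKM in A and 35.6 FPKM in F. None of these markers was at 0 in any library. Summed levels of the 6 astrocyte genes (187 to 350 FPKM, led by S100b), the 6 microglial genes (41.9 to 84.5 FPKM, led by C1qa) and the 5 endothelial genes (42.9 to 81.1 FPKM, led by Cldn5) varied less. The part of these other cells in the levels of the 6 genes was not tested.

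Gad1 was low in the superficial segment and highest across layer 5. Its level was 15.9 FPKM (95% interval 13.3 to 18.6) in A, 45.0 and 45.3 FPKM in B1 and B2, 67.7 FPKM (66.4 to 69.0) in C, 67.2 FPKM (66.0 to 68.4) in D, 50.7 FPKM in E and 32.9 FPKM (31.3 to 34.5) in F. C was thus 4.24 times A and 2.06 times F, while B1 and B2 differed by a factor of 1.01. In the order C, D, E, B, F, A, neighbours had intervals apart at 4 of 5 steps, and C and D overlapped. In pooled tissue, a lower level can come from fewer cells of a type or from less RNA per cell, and these cannot be told apart.

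Gad2 was highest in D and E. It was lowest in A at 7.15 FPKM (6.82 to 7.48), reached 12.4 and 13.9 FPKM in B1 and B2, 18.9 FPKM in C, 22.6 FPKM (22.0 to 23.1) in D and 21.7 FPKM (21.1 to 22.2) in E, and was 15.9 FPKM in F. D was 3.15 times A, the intervals of D and E overlapped, and the other 4 steps of the order D, E, C, F, B, A were apart. Both decarboxylases were lowest in A, and from D to E the ratio was 0.755 in Gad1 and 0.961 in Gad2, steps within the difference seen between replicates in other genes.

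Slc32a1, which loads GABA into vesicles, had the flattest profile of the 6. It was 21.1 FPKM (18.5 to 23.7) in A, 41.7 and 30.7 FPKM in B1 and B2, 38.0 FPKM in C, 49.9 FPKM (46.7 to 53.1) in D, 33.3 FPKM in E and 21.5 FPKM (20.7 to 22.2) in F, so that D was 2.37 times A. B1 and B2 had intervals apart and differed by a factor of 1.36, which is as large as several steps between segments. The steps from D to C and from E to F in its order were apart by interval, and the level in C lay below B1 and above B2, apart from each, so that the replicates placed C on opposite sides of layer 4.

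Pvalb had the highest mean level of the 6 genes and the widest range. It was 61.1 FPKM (58.7 to 63.4) in A, 70.2 and 118 FPKM in B1 and B2, 145 FPKM (142 to 149) in C, 117 FPKM (114 to 120) in D, 56.4 FPKM (54.3 to 58.6) in E and 16.5 FPKM (15.4 to 17.7) in F. C was 8.79 times F, and the fall from E to F was 3.41-fold. B2 was 1.68 times B1, a larger gap between the replicates than in 85.0% of tested genes, although both libraries lay between A and C.

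Calb2 ran the other way. It was highest in A at 5.23 FPKM (4.66 to 5.81), stood at 4.01 and 3.36 FPKM in B1 and B2, 2.55 FPKM in C, 1.62 FPKM (1.33 to 1.91) in D and 1.76 FPKM in E, and was higher again in F at 2.85 FPKM (2.47 to 3.23). A was 3.23 times D, and the estimated number of fragments behind a value was 107 to 362. Steps from A to B and from C to E in its order were apart, the neighbours F and C, and E and D, overlapped, and F overlapped B2 but not B1.

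Lhx6 followed Gad1 at a lower level. It was 2.11 FPKM (1.01 to 3.20) in A, 5.05 and 4.14 FPKM in B1 and B2, 6.17 FPKM (4.08 to 8.27) in C, 6.97 FPKM (5.43 to 8.52) in D, 4.73 FPKM in E and 3.07 FPKM (2.09 to 4.05) in F. Its intervals were wide, up to 90.9% of its mean, with an estimated 209 to 1014 fragments behind a value and up to 3 transcripts listed in a library, and no neighbours in its order were apart. D and A, at opposite ends of the order, differed by 3.31-fold with intervals well apart.

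**Figure D1:**
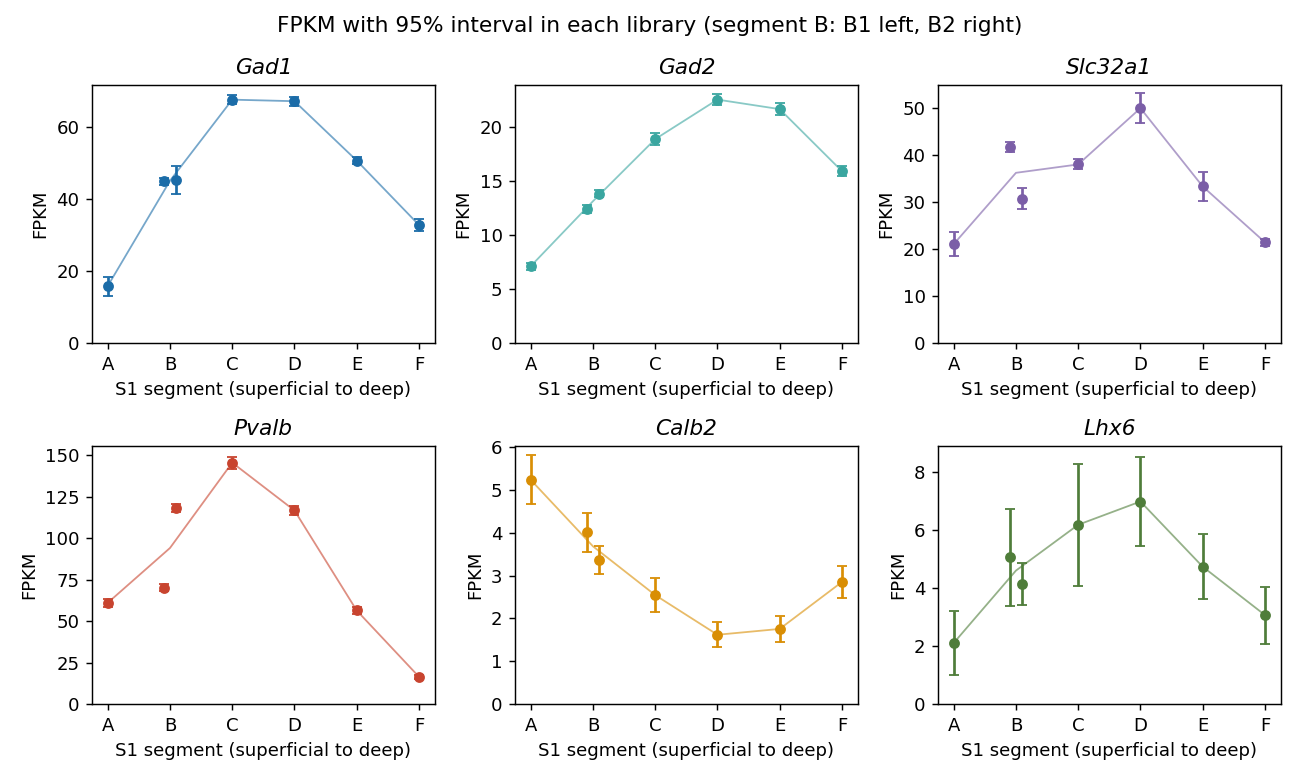
FPKM (vertical axis, linear, from 0) of each of the 6 genes in the 7 S1 libraries, by segment from superficial (A) to deep (F). Points are libraries, bars are the deposited 95% intervals, and the line joins the segments, with B as the mean of B1 and B2. Gad1, Gad2, Slc32a1, Pvalb and Lhx6 peak in C or D, and Calb2 is lowest in D.

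Whether level followed depth was tested with a linear and a quadratic term of segment position in limma, on log2(FPKM + 0.1), over the 13164 genes averaging 1 FPKM or more. The linear term is the change from A to F on a straight line, and the curvature is the quadratic term, which is below 0 where the middle segments are higher than the ends. Each adjusted p of this fit, here and beside the terms of the listed genes below, is from an F-test of both terms together. Neither term was tested alone within it. All 6 genes were called at an adjusted p of 0.05, against 43.7% of all tested genes, so that being called is itself common in these libraries. Curvature was -1.64 in Gad1, -0.99 in Gad2, -1.08 in Slc32a1, -2.05 in Pvalb and -1.39 in Lhx6, and +0.91 in Calb2. The adjusted p of both terms together was 0.0045, 0.0044, 0.0217, 0.0048, 0.0057 and 0.0118, in that order. A call with negative curvature, as in 5 of the genes, was made for 31.7% of tested genes, and a call with positive curvature, as in Calb2, for 12%. After correction for GC content Gad1, Slc32a1, Pvalb and Lhx6 were still called with negative curvature, against 12.2% of tested genes, and after correction for GC content and length against 14.1%. The highest level was in segment C or D for those same 5 genes and for 18.6% of tested genes, 4 of the 5 also had their lowest level in A, as had 14.1% of tested genes, and Calb2 was highest in A, like 23.7% of tested genes, and lowest in D, like 6.82%.

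The linear terms were +0.70 in Gad1, +1.13 in Gad2, -0.03 in Slc32a1, -1.66 in Pvalb, -1.16 in Calb2 and +0.34 in Lhx6, and among all tested genes 35.3% were called with a positive and 8.36% with a negative linear term. They must be read against the scale of the libraries, because the median linear term of all tested genes was +0.47 with the deposited FPKM and -0.01 after median-of-ratios scaling, and 80.8% of called genes had a positive linear term with the former against 53.2% with the latter. The linear term lay above that median in Gad1 and Gad2 and below it in the other 4 genes. Its sign held in every alternative for Calb2 and Gad2, although in Gad2 it came down to +0.38 after length correction, +0.19 after GC correction and +0.034 after both. It turned for Pvalb only without F (+0.04), and turned for Gad1, Slc32a1 and Lhx6 under several, among them leaving out A for Gad1 (-0.39) and Lhx6 (-0.50). The sign of the curvature was the same in all 21 alternatives with a quadratic term for 5 of the genes and in all 20 for Lhx6. Alternatives that change only the filter or the variance estimate cannot change the linear term or the curvature. Neither can using only the most abundant transcript in Gad2, Pvalb and Calb2, so these counts overstate the stability. With the 6 segments as separate levels, which leaves only the spread of B1 and B2, none of the 6 genes was called (adjusted p 0.184 to 0.371), and neither were they with a linear term alone. The Slc32a1 call was lost without A (adjusted p = 0.104), D (0.0766), E (0.0507) or F (0.0809), the Pvalb call without F (0.0806), and the Gad2 call when GC content was corrected (0.0655).

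**Figure D2:**
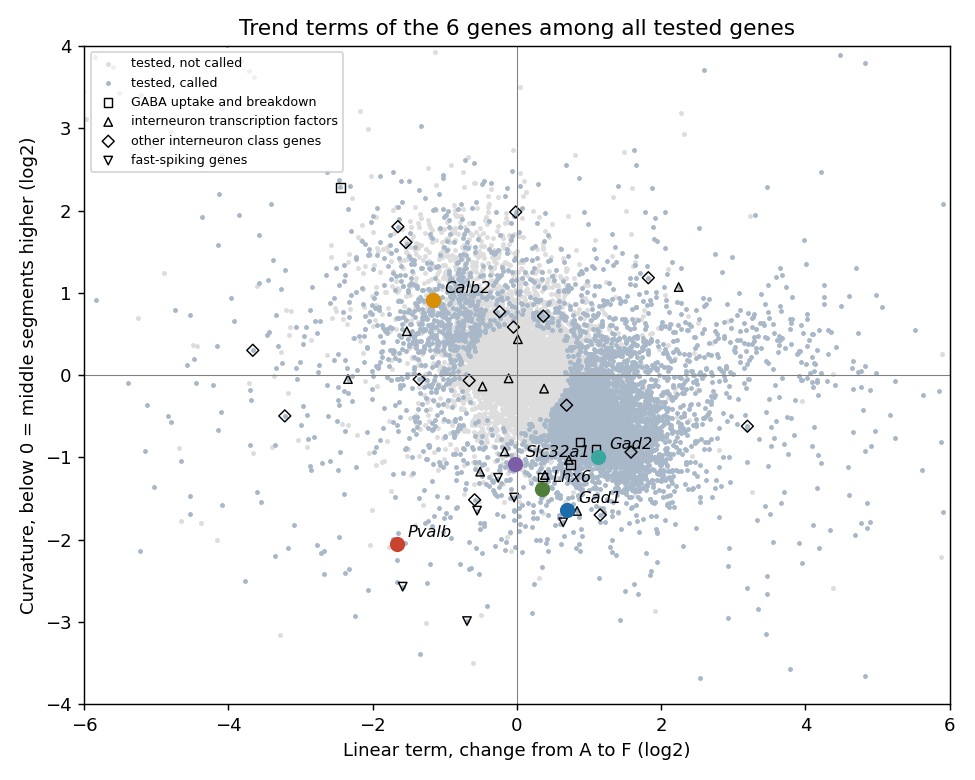
Linear term (horizontal axis, log2 change from A to F) against curvature (vertical axis, log2) for the 13164 tested genes. Blue-grey points were called at an adjusted p of 0.05, light grey points were not, large coloured points are the 6 genes, and open symbols are the 4 lists of related genes. 5 of the 6 genes lie below 0 on the curvature axis and Calb2 lies above it, and 48 genes fall outside the axes.

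Between neighbouring segments, genes were compared by intervals that do not overlap, which the study asked of isoforms, with segment B required to be apart in both B1 and B2. From A to B all 6 genes were apart (57.1% of tested genes), 5 higher in B (37.1% of tested genes) and Calb2 lower (20%). With median-of-ratios scaling Pvalb and Lhx6 overlapped from A to B, and without mitochondrial genes Calb2 did. From B to C 4 genes were apart (29.6% of tested genes), with Gad1, Gad2 and Pvalb higher in C (24.4%), and Calb2 lower (5.21%). Lhx6 overlapped, and Slc32a1 in C was apart from both B libraries in opposite directions, higher than B2 and lower than B1. From C to D, 4 genes were apart (24.5%), with Gad2 and Slc32a1 higher in D (13.9%) and Pvalb and Calb2 lower (10.7%). From D to E, Gad1, Slc32a1 and Pvalb were lower in E (12.8%, of 34.9% apart in either direction) and the other 3 genes overlapped. From E to F 5 genes were apart (44.2%), with Gad1, Gad2, Slc32a1 and Pvalb lower in F (19.5%) and Calb2 higher (24.7%), and Lhx6 overlapped.

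These intervals are narrow beside the replicate spread, since B1 and B2 themselves were apart for 57% of tested genes, among them Gad2, Slc32a1 and Pvalb. A second limit therefore asked for more than the 95th percentile of the difference between B1 and B2, a factor of 2.27. Only Gad1 passed it from A to B (2.83-fold higher in B, 18.6% of tested genes passing) and only Pvalb from E to F (3.41-fold lower in F, 3.49% passing). None of the 6 genes passed it from B to C, C to D or D to E, where 1.98%, 1.06% and 1.38% of tested genes did. From A to C all 6 genes had intervals apart (75.7% of tested genes), and from C to F all but Calb2 (53.2%). At the second limit, Gad1, Gad2, Pvalb and Lhx6 passed it from A to C (4.24-, 2.64-, 2.38- and 2.93-fold higher in C, 29.7% of tested genes passing), and Pvalb from C to F (8.79-fold lower in F, 8.16% passing). These folds are on the deposited FPKM. The median-of-ratios factor was 0.787 in A and 1.05 in C, so rises from A to C are smaller on that scale. By these factors the rises of Gad2, Pvalb and Lhx6 (2.64-, 2.38- and 2.93-fold as deposited) would fall short of a factor of 2.27, and that of Gad1 would not. The second limit itself was not recomputed on that scale.

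A ratio of 2 genes within a library does not depend on how the library was scaled, so each gene was set against Gad1. Pvalb fell against Gad1 with depth, from 3.83 times Gad1 in A to 1.56 and 2.60 in B1 and B2, 2.15 in C and 1.74 in D, and on to 1.11 in E and 0.503 in F. The slope was -0.47 on the log2 scale per segment (exact permutation of the 7 libraries, 2-sided p = 0.00357, adjusted p = 0.0179 over 5 ratios). The call was lost without B2 (adjusted exact p = 0.0694), E (0.0833) or F (0.0972), and with ranks in place of values (0.115), while the slope kept its sign in each.

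The other 4 ratios did not pass the test. Gad2 was 0.448 times Gad1 in A, 0.277 and 0.306 in B1 and B2, 0.279 in C, then 0.336 in D, 0.427 in E and 0.485 in F, lowest in the middle segments, with a slope of +0.09 per segment (adjusted exact p = 0.283). Without A, whose ratio was close to those of E and F, the slope was +0.19 and the adjusted exact p 0.0278. Slc32a1 was 1.32 times Gad1 in A and 0.562 to 0.929 times Gad1 in the other libraries (slope -0.15, adjusted exact p = 0.246). The Lhx6 intervals were wide, such as 1.01 to 3.20 FPKM in A. By its point estimates Lhx6 held the narrowest range, 0.0912 to 0.132 times Gad1 (slope -0.07, adjusted exact p = 0.246). The direction of these last slopes depended on the processing, since after GC correction they were +0.065 for Slc32a1 and +0.050 for Lhx6, and without A they were -0.05 and -0.02. Calb2 was 0.328 times Gad1 in A, 0.0891 and 0.0741 in B1 and B2, 0.0376 in C, then 0.0241 in D, 0.0346 in E and again 0.0867 in F, a curved profile that a slope describes poorly (slope -0.38, adjusted exact p = 0.254). These p-values do not show that the ratios were constant.

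**Figure D3:**
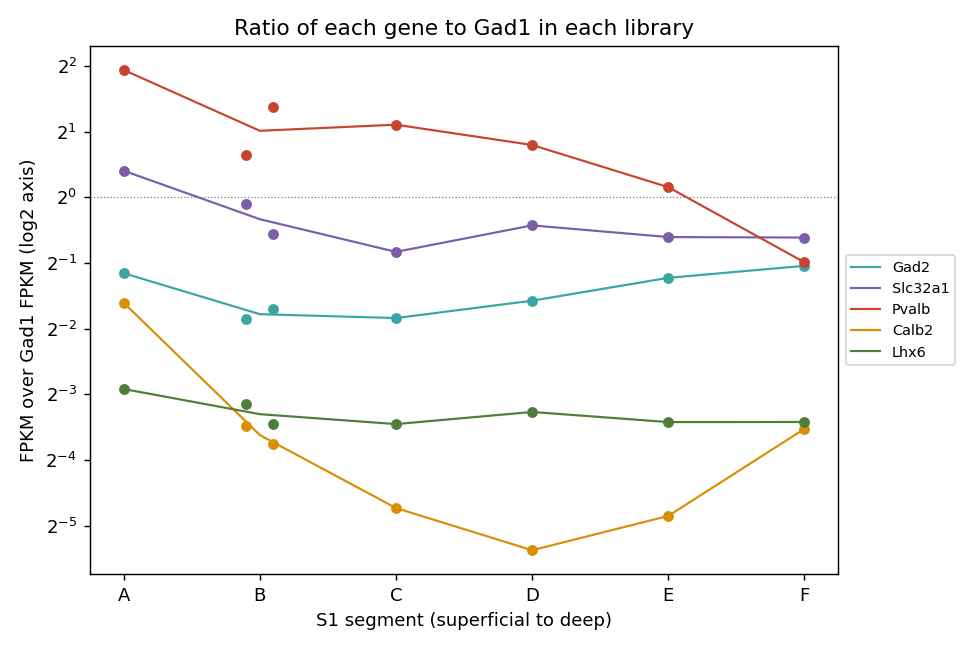
FPKM of each gene over the FPKM of Gad1 (vertical axis, log2 scale) in the 7 S1 libraries by segment. Points are libraries, and lines join the segments, with B as the geometric mean of B1 and B2. Pvalb falls from 3.83 in A to 0.503 in F, Lhx6 stays between 0.0912 and 0.132 by its point estimates, and Calb2 is lowest in D.

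Against Snap25, a marker of neurons as a whole, Gad1 varied less than its own level did. Snap25, a presynaptic SNARE protein of all neurons, was 490 FPKM in A, 1175 and 1273 FPKM in B1 and B2, 1592 FPKM in C, then 1658 in D, 1574 in E and 1115 in F, and Gad1 was 2.95% to 4.25% of it, lowest in F and highest in C. Slc17a7, the vesicular glutamate transporter of cortical excitatory neurons, was added after its values were seen. Gad1 was 3.67% of Slc17a7 in A, 7.14% and 10.3% in B1 and B2, then 11.1% in C and 10.03% in D, and 6.66% in E and 4.11% in F. It was again highest in C, but B2 was above D, so layer 5 was not set apart from layer 4. The 6 pan-neuronal genes, Snap25 among them, summed to 1433 FPKM in A and 2298 to 3035 FPKM elsewhere (2993 in C). That sum rose less from A to C than Snap25 did, so Gad1 rose more from A to C against the sum than against Snap25. The Gad1 share of the sum was not computed, and the narrow range given above holds for Snap25 only. The 6 excitatory genes summed to 6066 FPKM in A and 2352 in F, led by Nrgn, a postsynaptic calmodulin-binding protein (4621 FPKM in A, 1028 in F).

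Transcripts of the genes gave the composition behind these levels. Gad2, Pvalb and Calb2 each had 1 Ensembl transcript. Gad1 was carried by ENSMUST00000094934 (3355 nt), which made up 87.4% to 100% of the gene and was 14.6 FPKM in A, 67.7 FPKM in C and 28.7 FPKM in F. The 1138 nt transcript ENSMUST00000123330, which ends well short of the full gene, was listed only in F, at 4.15 FPKM (3.09 to 5.21), where it made up 12.6% of Gad1. ENSMUST00000140478 was listed only in A, at 1.29 FPKM (0 to 3.19), and in B2, at 3.63 FPKM (0.881 to 6.39). A and B2 are also the libraries with the larger mitochondrial share, and a link was not tested.

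Slc32a1 was split between the full-length ENSMUST00000045738 (2797 nt) and a 717 nt model inside it, ENSMUST00000099132, assigned to the gene by position. The short model was listed in A, B2, D and E at 4.68, 6.03, 9.07 and 7.84 FPKM, or 18.2% to 23.5% of the gene, and was not listed in B1, C and F. The full-length transcript alone was 16.4 FPKM in A, 41.7 and 24.7 FPKM in B1 and B2, 38.0 in C, then 40.9 in D, 25.5 in E and 21.5 in F. On main transcripts, the Slc32a1 trend was just outside the threshold (adjusted p = 0.0520). Why a transcript was not listed in a library was not tested, and a transcript that is not listed may be present at a low level.

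Lhx6 had 5 transcripts. ENSMUST00000112967, placed at the upstream start by GENCODE M21, was listed in all 7 libraries at 1.08 to 4.66 FPKM and 48.1% to 78.7% of the gene. On mm9 its deposited model began at base 35960727, inside that of ENSMUST00000112963, which began at 35960928. Transcripts from the downstream start, ENSMUST00000112961 and ENSMUST00000112966, summed to 0.485 FPKM in A, 0.886 and 0.478 in B1 and B2, 1.86 (30.2% of the gene) in C and 0.346 in F, and were not listed in D and E. Of those 5 values, the intervals of the downstream transcript in A, B1 and F reached 0. In Gad1, Slc32a1 and Lhx6, the genes with several transcripts, no pair of libraries had 1 transcript higher and another lower by intervals that did not overlap, counting only transcripts listed in both libraries. Transcripts listed in 1 library of a pair, such as the 1138 nt Gad1 transcript in F, were not counted.

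**Figure D4:**
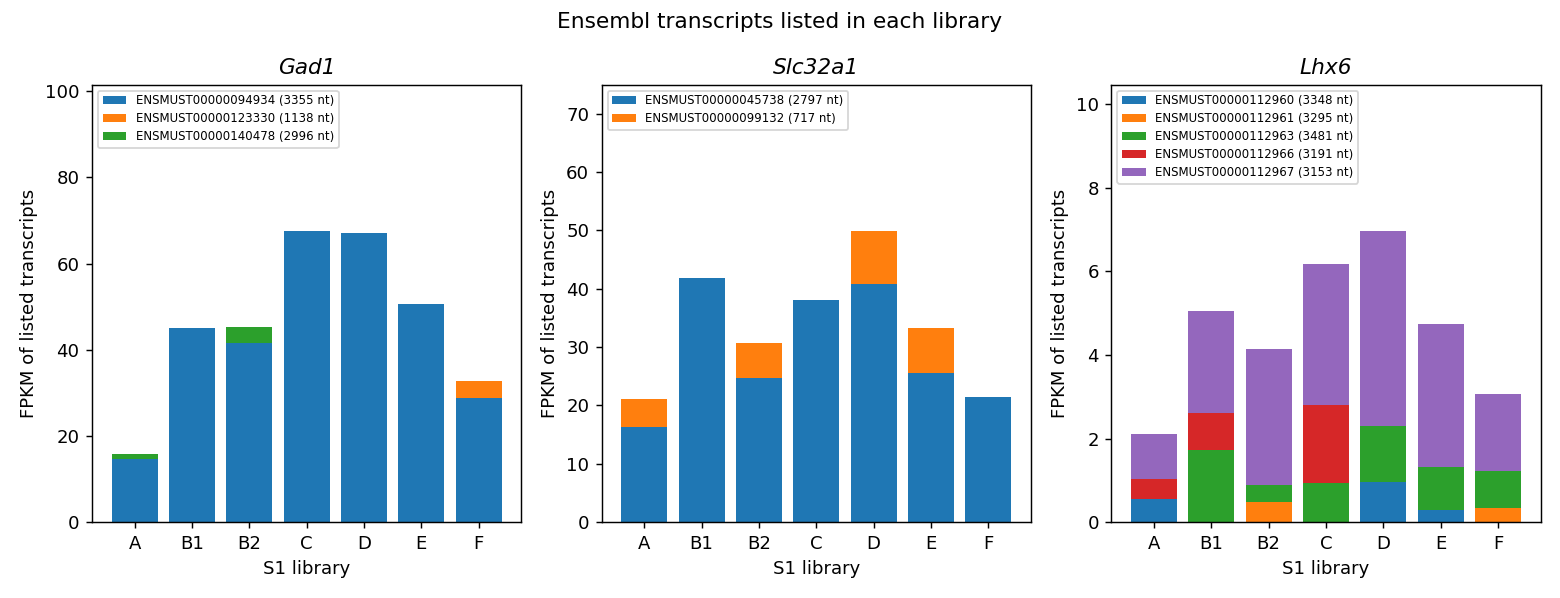
FPKM (vertical axis, linear) of the Ensembl transcripts of Gad1, Slc32a1 and Lhx6 listed in each of the 7 S1 libraries, stacked, with transcript lengths in nt in the legends. The 1138 nt Gad1 transcript appears only in F, and the 717 nt Slc32a1 model appears in A, B2, D and E.

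Genes of GABA uptake and breakdown were, like Gad1, lower in A than in the middle segments for the most part. Of the 6 listed genes 5 were tested and all 5 were called, 4 of them with negative curvature (43.7% and 31.7% of all tested genes), and the median curvature was -0.90 against -0.13 over all tested genes. The list is sensitive to the fit, with 0 to 5 genes called when 1 library was left out and 0 without A. It is also sensitive to scale, with 2 called after median-of-ratios scaling and 1 after GC correction. Aldh5a1, the succinate semialdehyde dehydrogenase that ends GABA breakdown, was 5.75 FPKM in A, 13.1 and 13.7 in B1 and B2, 17.5 in C, then 17.5 in D, 16.4 in E and 16.6 in F (linear term +1.10, adjusted p = 0.0124). Abat, GABA transaminase, was 21.0 FPKM in A and 40.6 to 58.1 FPKM elsewhere (linear term +0.87, adjusted p = 0.0246). From C to F, Aldh5a1 and Abat (58.1 to 51.5 FPKM) fell less than Gad1 (67.7 to 32.9 FPKM). Slc6a13, the transporter GAT2 of meninges and vessels, was the exception at 7.27 FPKM in A and 0.368 to 0.761 FPKM elsewhere (linear term -2.45, adjusted p = 0.0110), and A was also the library with the highest Ptgds.

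Of 15 interneuron transcription factors 12 were tested and 5 were called, 4 of these with negative curvature, shares close to the 43.7% and 31.7% of all tested genes, and the median curvature was -0.15. Satb1, a chromatin organiser of interneurons from the medial ganglionic eminence and of other neurons, was 11.7 FPKM in A, 39.3 and 44.3 in B1 and B2, 57.6 in C, then 53.0 in D, 43.7 in E and 31.1 in F (linear term +0.83, curvature -1.65, adjusted p = 0.0094). Maf fell with depth from 12.8 FPKM in A and 14.7 and 9.70 in B1 and B2 to 3.08 in F (linear term -2.34, adjusted p = 0.0056). Prox1, a homeodomain factor of interneurons from the caudal ganglionic eminence, was 0.804 to 1.29 FPKM in A to D, 2.06 in E and 5.63 in F (linear term +2.24, adjusted p = 0.0025). F was also the library with the highest sum of oligodendrocyte genes (12042 FPKM), and which cells carried Prox1 was not tested. Nr2f2, another factor of that lineage, was 4.11 FPKM in A and 0.678 to 1.34 elsewhere and was not called (adjusted p = 0.0956).

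The other interneuron class genes did not share a profile. Of 17 listed, 16 were tested and 11 were called (43.7% of all tested genes), 6 with negative and 5 with positive curvature (31.7% and 12%). Calb1, calbindin, fell from 39.5 FPKM in A, and 29.7 and 33.9 in B1 and B2, to 10.8 in C and 3.54 in F (linear term -3.66, adjusted p = 0.0036). Lamp5, a membrane protein of neurogliaform cells and upper-layer neurons, fell from 258 FPKM in A to 29.8 in F (linear term -3.22, adjusted p = 0.0023). Tac1, the substance P precursor, which also stands in the striatal list, was 1.24 to 1.59 FPKM in A and B and 6.08 in C to 9.41 in F (linear term +3.19, adjusted p = 0.0123). Nos1, the neuronal nitric oxide synthase, was 1.15 to 2.87 FPKM in A to D, 4.59 in E and 6.25 in F (linear term +1.82, adjusted p = 0.0125). Many of these genes are also expressed by excitatory neurons of particular layers.

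All 6 genes of the fast-spiking list, which holds channels and release proteins of cells that express Pvalb, were tested, and 5 were called, all 5 with negative curvature (43.7% and 31.7% of all tested genes). The median curvature was -1.72, against -0.13 over all tested genes. Which cells carried these transcripts was not tested, and Cplx1 was 193 FPKM in F, where Pvalb was 16.5 FPKM. Kcnab3, a potassium channel subunit, was 8.20 FPKM in A, 56.5 and 41.3 in B1 and B2, 43.3 in C, then 29.5 in D, 12.7 in E and 5.85 in F (linear term -1.58, adjusted p = 0.0126). Syt2, the calcium sensor of release at Pvalb terminals, was 3.54 FPKM in A, 21.2 and 15.0 in B1 and B2, 26.4 in C, then 23.7 in D, 9.53 in E and 3.28 in F (linear term -0.69, adjusted p = 0.0036). Like Pvalb, both were far lower in F than in C, but their levels in A were lower than in B, C and D by a wider margin than that of Pvalb. Kcnc2, the channel Kv3.2, was 4.72 FPKM in A, 21.5 in D and 8.20 in F (linear term +0.64, adjusted p = 0.0037), and Cplx1, complexin 1, was 178 FPKM in A, 546 in C and 193 in F (linear term -0.04, adjusted p = 0.0099).

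**Figure D5:**
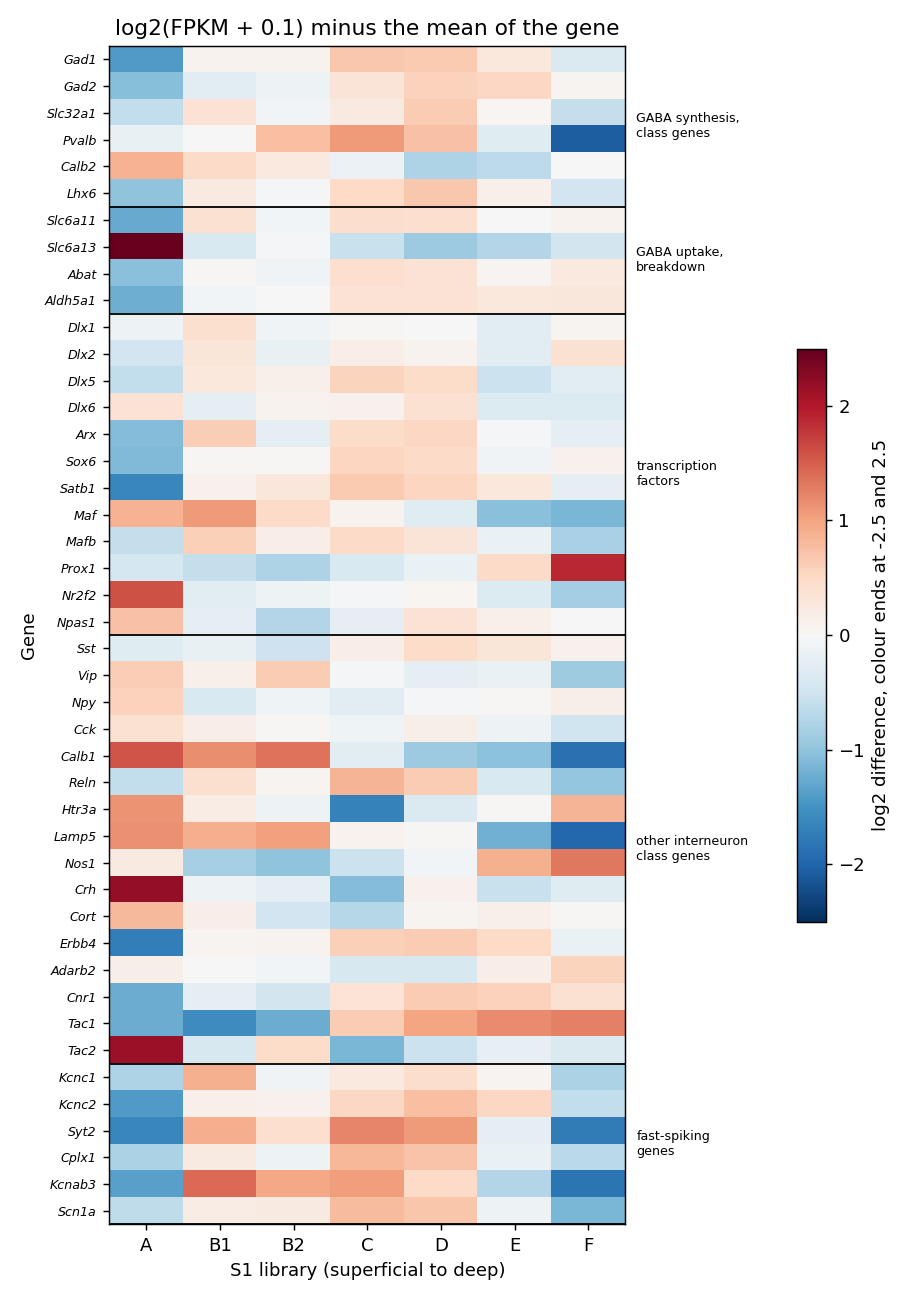
Log2(FPKM + 0.1) of each gene minus its mean over the 7 S1 libraries (colour, red above and blue below the mean), for the 6 genes and tested genes of the 4 lists (rows), by library (columns). The fast-spiking genes are below their mean in A and F. Slc6a13, Calb1 and Lamp5 are highest in A, and Tac1 and Prox1 are highest in F.

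Among the 6 genes, Pearson's r of log2(FPKM + 0.1) over the 7 libraries was highest for Gad1 with Lhx6 (0.97) and Slc32a1 with Lhx6 (0.94), was 0.89 for Gad1 with Gad2 and 0.49 for Gad1 with Pvalb, and was lowest for Gad2 with Calb2 (-0.95). The libraries share their depth, composition and order in these values, so they are given as a description. The other tested genes most like Gad1 included St8sia1 (0.997) and Plau (0.993), and the 3 most like Lhx6 were Coq9 (0.991), Fam210b (0.988) and Akap12 (0.987). For Gad2 they were H2-T10 (0.998), Hgsnat (0.995) and Ppm1k (0.995), and for Slc32a1 they were Lrrc20 (0.977), Kctd8 (0.958) and Lrrc38 (0.957). The genes most like Pvalb were 9430021M05Rik (0.987), Nefm (0.979), which encodes a neurofilament subunit and was 188 FPKM in C, 202 in D and 38.0 in F, and Coro6 (0.971). Those most like Calb2 were Ehd2 (0.991), Ttc28 (0.981) and Mical1 (0.977), and Mical1 was 5.08 FPKM in A and 1.66 FPKM in D.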

How the data were processed

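RNA of 7 S1 libraries was sequenced in pairs of reads. The authors mapped the reads to mm9 with TopHat 1.0.13 and estimated, with cufflinks 0.8.3, the FPKM of Ensembl genes and transcripts, deposited with a 95% interval, and the read coverage (signal) deposited for each transcript. Of 19 samples, 12 (dorsal and lateral cortex) were not used here, nor were the de novo models. A gene without an entry in a library was set to 0. The ratio of coverage to FPKM gave the depth, taking 2 ends of 50 nt for a fragment, and the median interval of tested genes spanned 14.4% (B2) to 22.0% (A) of the FPKM. Intervals cover estimation within a library only, and p-values rest on 7 pooled libraries.

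Trends were fitted with limma 3.58.1 in R 4.3.3 on log2(FPKM + 0.1), with linear and quadratic segment position (A = 1 to F = 6). The 13164 genes averaging 1 FPKM or more were tested by a moderated F-test of both terms together, with Benjamini-Hochberg adjustment. The code of the fit was run on simulated linear trends with independent normal noise, which checks the code and not these data. The slope of log2 ratios to Gad1 was tested by exact permutation over libraries (Python 3.11.15, numpy 2.4.6). GC content came from GENCODE M21 transcripts by identifier. Length was that deposited for the most abundant transcript where GENCODE held it, and otherwise that of the longest GENCODE transcript. Of the listed symbols, 109 of 109 were found.

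The 6 genes and all lists were chosen with earlier results of these data known. Genes were named by a rule, namely the 6 genes, from each of the 4 related lists the 2 tested genes with the highest and the 2 with the lowest linear term, for each of the 6 genes the 3 tested genes with the highest Pearson correlation, and from each cell type list the gene with the highest mean FPKM. The layer markers and Slc17a7 stand outside the rule, and some genes that the rule names are not reported here. Alternatives changed the pseudocount, filters, scaling, GC and length, the fit and the libraries.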

Additional observations from a re-analysis of the deposited data

How the results depend on the processing

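No paired analysis was possible because segments A, C, D, E and F had 1 library each, so that no segments compared shared 2 or more replicate numbers. Length corrections, main transcripts and leaving out A and B2 together were chosen after seeing the data.

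Over the trend test, 5749 genes were called, and 3387 after GC correction, 2486 with a linear term alone, 52 with 6 separate segments, 2737 without A and B2 together, and 1686 (without A) to 7933 (without B1) when 1 library was left out. Called genes with a positive linear term were 4648 of 5749, but 2311 of 4348 after median-of-ratios scaling, 3270 of 4609 without mitochondrial genes, 1692 of 3387 after GC correction, 2372 of 4565 after length correction and 1941 of 4024 after both. Of the 6 genes, 0 were called with a linear term alone or 6 separate segments (limma, 5270 and 2802 of all genes at an unadjusted p under 0.05), and 4 to 6 when 1 library was left out. With a linear term alone the adjusted p was 0.473 in Gad1, 0.101 in Gad2, 0.971 in Slc32a1, 0.192 in Pvalb, 0.101 in Calb2 and 0.688 in Lhx6, and with 6 segments 0.190, 0.229, 0.371, 0.184, 0.229 and 0.238. The cause was not tested, except that 6 segments leave 1 residual degree of freedom. Gad2 was not called after GC correction (adjusted p = 0.0655), length correction (0.0627) or both (0.351). Slc32a1 was not called on main transcripts (0.0520) or without A and B2 together (0.0690), and ranged from 0.0101 to 0.104 when 1 library was left out. Leaving out 1 library gave 0.00175 to 0.0806 in Pvalb.

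The linear term changed sign in Gad1 after GC correction (-0.044), GC and length correction (-0.16) and without A and B2 together (-0.66), with a range of -0.39 to 1.79 when 1 library was left out. In Slc32a1 it was 0.28 after GC correction, 0.16 after GC and length correction and 0.024 with B1 and B2 averaged, -1.05 without A and B2 together, and -0.66 to 0.81 when 1 library was left out. In Lhx6 it was -0.13 after median-of-ratios scaling, -0.30 after length correction, -0.89 without A and B2 together, and -0.50 to 1.32 when 1 library was left out.

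The Pvalb ratio to Gad1 had an adjusted exact p of 0.115 on ranks and 0.0139 to 0.0972 when 1 library was left out, and the Gad2 ratio 0.0278 (without A) to 0.8. The slopes of the Slc32a1 and Lhx6 ratios, which were not called, turned positive after GC correction (+0.065 and +0.050) and after GC and length correction (+0.063 and +0.042). From A to B, 2 of the 6 genes were apart with intervals widened 2 times, and 4 with median-of-ratios scaling.

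Among related genes, 6 class genes were called when restricted to classifiable genes, those with intervals up to 50% of their mean. Uptake and breakdown genes called were 3 with no filter, 2 with median-of-ratios scaling, 1 with GC correction, 2 with length correction, 3 with both and 1 without A and B2 together, against 7 class genes in the last setting. With a linear term alone 0 uptake genes, 2 transcription factors, 5 class genes and 0 fast-spiking genes were called, and with 6 segments 0 of each list. Without 1 library the counts ranged from 0 to 5, 3 to 7, 7 to 12 and 4 to 6. Under the other alternatives, each of these tests stayed on its side of the threshold and each count within 1.5 times its main value.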
